A study of Mus musculus with 6 samples.

Results

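The mouse genome carries 6 conventional actin genes, 4 of them named for muscle (*Acta1*, *Actc1*, *Acta2* and *Actg2*) and the other two cytoplasmic (*Actb* and *Actg1*). The 500 kb bins that hold their transcription start sites in the GENCODE annotation of mm10 were examined here by Hi-C, which captures contacts between genomic regions by ligation. These 6 bins lie on 6 different chromosomes and belong to the 4727 autosomal bins that held data in all 3 conditions, of 5272 bins on the autosomes and chr X.

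Hi-C was performed on C2C12 cells, an established line of myoblasts that was grown from injured thigh muscle of C3H mice and fuses into multinucleated myotubes in low-serum medium. Myoblasts were harvested while proliferating at low density (day 0). Myotubes were harvested at day 3 of differentiation, when the cultures still held undifferentiated myoblasts. AraC-treated myotubes were harvested at day 7, after growth from day 3 in 10 µg/ml of AraC, a cytidine analogue that kills dividing cells and depleted the myoblasts. Each condition had 2 biological replicates, 6 libraries in all, from separate vials of the line, and the authors pooled them into 1 matrix per condition. Each matrix entry is a correlation coefficient that compares how a pair of bins interacts with the rest of the genome, so it is high for bins with similar partners and counts no contacts. With 1 matrix per condition there was no spread between replicates, so no difference below was tested, and rise and fall name only the sign of a difference between single matrices. Myotubes and AraC-treated myotubes differ in day, drug and remaining myoblasts, which cannot be told apart. C2C12 is a single line, so the values describe that line and not muscle as a tissue.

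Actins polymerize into the filaments that give cells their shape and that myosin pulls on during contraction. *Acta1* encodes skeletal muscle alpha-actin, the main actin of adult skeletal muscle fibres, and *Actc1* encodes cardiac alpha-actin, which is also made by embryonic and regenerating skeletal muscle. *Acta2* and *Actg2* encode the alpha and gamma actins of smooth muscle, vascular and enteric respectively, whereas *Actb* and *Actg1* encode the beta and gamma actins of nearly all non-muscle cells. Many actin genes respond to serum response factor (SRF), which binds the CArG box, and muscle promoters often also carry the MCAT element read by TEAD factors. Hi-C separates chromatin into an A compartment, in general rich in genes and transcribed, and a B compartment that is poorer in both, and the first principal component (PC1) of a chromosome's correlation matrix is the usual measure of it.

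The promoters below are shown because the start sites placed the genes in their bins and because their SRF motifs are what the family is known for. They are the 250 bases before the RefSeq start on GRCm38.p6 (the same assembly as mm10), 5′ to 3′ on the minus strand, on which all 6 genes lie. RefSeq promoters were matched for 4 of the 6 genes, and *Actb* and *Actg2* are named only. Capitals mark the CArG box (CC, 6 letters that are A or T, then GG) and CArG-like runs of the same 10 letters in which 1 of the 6 central letters is G or C. The motif reads the same on both strands.

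Acta1 (chr8:123894776-123895025): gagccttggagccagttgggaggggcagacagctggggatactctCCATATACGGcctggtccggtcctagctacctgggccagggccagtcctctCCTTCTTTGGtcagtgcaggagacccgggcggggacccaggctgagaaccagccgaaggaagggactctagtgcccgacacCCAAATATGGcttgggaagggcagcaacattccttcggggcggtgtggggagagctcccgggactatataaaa

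Actc1 (chr2:114052876-114053125): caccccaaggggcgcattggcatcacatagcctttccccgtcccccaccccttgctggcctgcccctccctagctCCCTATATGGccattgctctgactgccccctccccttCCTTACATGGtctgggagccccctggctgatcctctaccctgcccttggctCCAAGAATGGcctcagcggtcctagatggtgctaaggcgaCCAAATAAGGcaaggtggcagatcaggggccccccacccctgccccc

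Acta2 (chr19:34255374-34255623): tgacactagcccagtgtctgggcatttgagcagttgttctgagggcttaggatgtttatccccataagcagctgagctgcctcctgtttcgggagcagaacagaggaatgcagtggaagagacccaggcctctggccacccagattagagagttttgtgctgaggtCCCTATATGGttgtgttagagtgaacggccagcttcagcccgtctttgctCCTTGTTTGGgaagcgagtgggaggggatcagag

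Actg1 (chr11:120348496-120348745): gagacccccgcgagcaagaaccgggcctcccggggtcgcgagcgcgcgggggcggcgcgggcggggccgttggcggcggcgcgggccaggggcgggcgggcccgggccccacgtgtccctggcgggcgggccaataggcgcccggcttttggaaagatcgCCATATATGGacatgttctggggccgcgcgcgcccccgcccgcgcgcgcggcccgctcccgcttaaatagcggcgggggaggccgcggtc

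A strict CArG box stood in 3 of the 4 promoters, at −73 to −64 in *Acta1* (CCAAATATGG), −47 to −38 in *Actc1* (CCAAATAAGG) and −90 to −81 in *Actg1* (CCATATATGG), counted back from the start site. *Acta2* held none and had 2 CArG-like runs, CCCTATATGG at −84 to −75 and CCTTGTTTGG at −34 to −25. *Actc1* had 3 CArG-like runs and *Acta1* had 2. Over all 32851 promoters of the table, 1.47% held a strict CArG box and 8.59% held either form. The MCAT letters CATTCC, searched on both strands and present in 12.6% of all promoters, occurred once in *Acta1* and once, on the opposite strand, in *Acta2*. The cytoplasmic *Actg1* promoter differed most in composition, with 79.2% G and C and 43 CpG in 250 bases, against 61.2% and 9 in *Acta1*, 63.6% and 4 in *Actc1*, 53.6% and 4 in *Acta2*, and medians of 52.4% and 6 over all promoters. The strict motif thus occurred at loci of both compartments (*Acta1* and *Actg1* in A, *Actc1* in B, as described below). The RefSeq starts lay 24 bases (*Acta1*), 673 bases (*Actc1*), 217 bases (*Acta2*) and 47 bases (*Actg1*) from the GENCODE gene starts, in each case inside the same bin.

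The actin loci occupied very different surroundings. *Acta1* (chr8:123891769-123894751, bin chr8:123500001-124000000) shared its bin with 7 other protein-coding genes, the nearest being *Ccsap*, *Nup133*, *Abcb10* and *Rab4a*, followed by *Rhou*, *Gas8* and *Dbndd1*. *Actg1* (chr11:120345690-120348542, bin chr11:120000001-120500000) lay 1.73 Mb from the end of its chromosome in a bin with 18 protein-coding start sites, the nearest being those of *Fscn2*, *Faap100*, *Nploc4* and *Tspan10*. *Actb* (chr5:142903115-142906754, bin chr5:142500001-143000000) had 9 start sites in its bin, with *Fbxl18*, *Fscn1*, *Tnrc18* and *Slc29a4* the nearest. *Fscn1* and *Fscn2* encode fascins, which bundle actin filaments, so that both cytoplasmic actins had a fascin gene in their bin. *Actg2* (chr6:83512905-83536265, bin chr6:83500001-84000000) had 12 start sites, with *Dguok*, *Stambp*, *Clec4f* and *Cd207* the nearest.

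By contrast, *Actc1* (chr2:114047282-114053548, bin chr2:114000001-114500000) had only *Gjd2*, *Aqr* and *Zfp770* beside it. *Acta2* (chr19:34241090-34255590, bin chr19:34000001-34500000) lay among lipase genes (*Lipk*, *Lipn*, *Lipm*), *Ankrd22*, *Stambpl1*, the death receptor gene *Fas* and *Ch25h*. The median bin had 2 start sites, so all 6 bins were above it. The bins of *Acta1*, *Actb* and *Actg1* were among the richest in G and C (51.0%, 50.1% and 51.7%, the 99.2nd, 98.1st and 99.6th percentiles of autosomal bins), whereas those of *Actg2* (44.6%), *Acta2* (40.6%) and *Actc1* (39.8%) lay nearer the median of 41.7%. HindIII, the enzyme used for the libraries, cut the *Acta1* and *Actg1* bins at 104 sites each and the *Actb* bin at 86 sites, against 145 for *Actg2*, 168 for *Actc1*, 175 for *Acta2* and a median of 162. The part of site number and base composition in the values below was not tested.

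The question of whether muscle actin loci lie in another compartment than the cytoplasmic ones, and whether they move during differentiation, was addressed first with PC1. The compartments divided the family, but not between muscle and cytoplasmic genes. *Acta1*, *Actg2*, *Actb* and *Actg1* lay in A in all 3 conditions. *Actc1* and *Acta2* lay in B in all 3, *Acta2* with a PC1 close to the border in myoblasts (−0.0566) and myotubes (−0.0290). Thus 4 of the 6 bins were in A, against 38.3%, 36.5% and 35.5% of autosomal bins with a PC1 above 0 (in the order myoblasts, myotubes, AraC-treated myotubes, which is used for all triplets of values below). No actin bin changed sign of PC1 between any 2 conditions (0 of 6), against 7.32% of all bins from myoblasts to myotubes, 10.2% from myoblasts to the AraC-treated cultures and 5.12% from myotubes to the latter. With only 6 bins, a count of 0 cannot be told apart from such shares. The PC1 percentile defined below rose in 4, 4 and 3 of the 6 bins in these comparisons, against 48.3%, 47.2% and 47.7% of all bins.

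**Figure D1:**
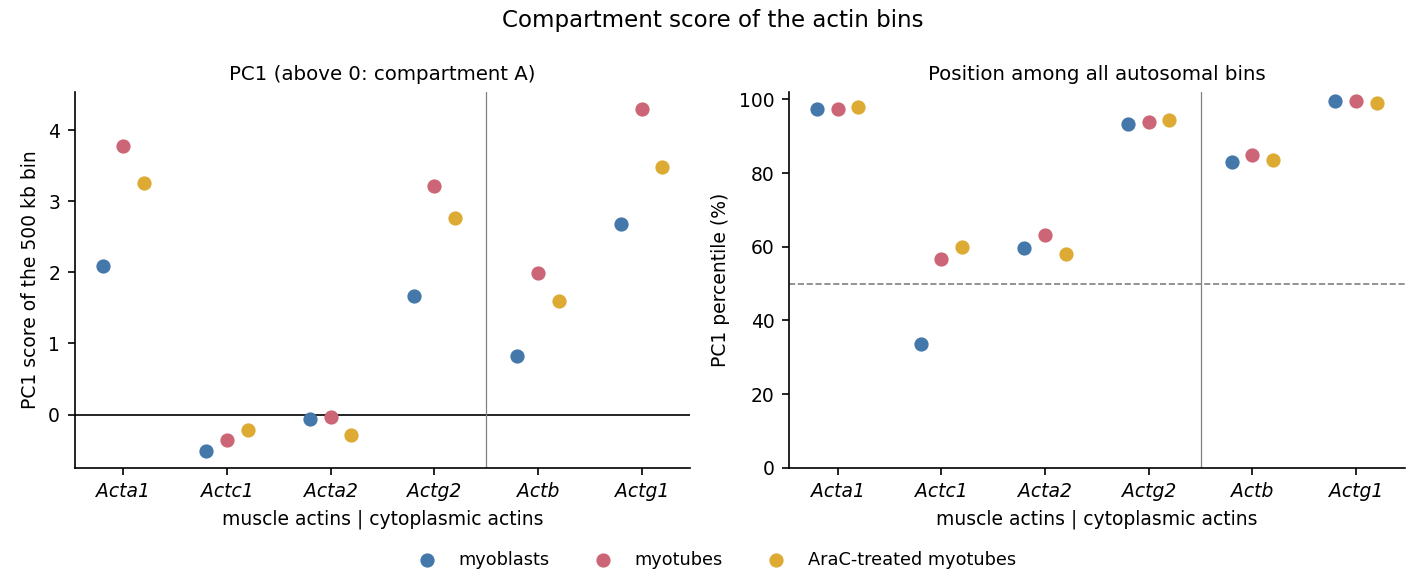
PC1 score (left, no unit) and PC1 percentile among the autosomal bins (right, %) of the 500 kb bins of the 6 actin genes, 1 point per condition and pooled matrix; a vertical line parts muscle from cytoplasmic actins. *Actc1* and *Acta2* lie below a PC1 of 0 in every condition and the other loci above it, and *Actc1* is the locus whose percentile moves, from 33.6 in myoblasts to 56.6 and 60.0.

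Of the loci in A, *Actg1* had the highest PC1, at 2.68, 4.29 and 3.48. *Acta1* followed with 2.09, 3.78 and 3.25, and *Actg2* with 1.66, 3.22 and 2.76. *Actb* was the lowest of them, with 0.821, 2.00 and 1.60. The order of these loci was the same in every condition, and each was highest in myotubes. PC1 was taken on each chromosome alone, so scores of different chromosomes need not share a scale. By rank from the top of its own chromosome, *Actg1* was 3rd, 5th and 14th of 237 bins and *Acta1* 3rd, 6th and 5th of 249. *Actg2* was 14th, 16th and 13th of 289, and *Actb* 53rd, 49th and 52nd of 291. With the component computed from correlation coefficients with other autosomes only, however, *Acta1* was above *Actg1* in all conditions (7.83, 14.6 and 12.1 against 6.70, 11.2 and 8.54), and *Actg2* was above *Actg1* in both later ones (12.3 and 9.72). The spread of PC1 over all bins also differed between conditions, however (SD 0.859, 1.61 and 1.36), so conditions were compared by percentile, the percent of the other autosomal bins with a lower PC1. On that scale the loci in A were nearly level. *Acta1* stood at the 97.3rd, 97.2nd and 98.1st percentiles, *Actg1* at the 99.6th, 99.4th and 99.1st, *Actg2* at the 93.4th, 93.7th and 94.3rd, and *Actb* at the 83.0th, 84.8th and 83.7th. *Acta1*, the actin of the adult fibre, was therefore in the top 3% of bins already in myoblasts, and its percentile differed by only −0.0423 points between myoblasts and myotubes.

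The loci in B lay closer to a PC1 of 0 than those in A. *Acta2* had a PC1 of −0.0566, −0.0290 and −0.287, at the 59.7th, 63.1st and 58.0th percentiles. *Actc1* had −0.507, −0.358 and −0.213, at the 33.6th, 56.6th and 60.0th percentiles. *Actc1* thus rose by 23.0 points from myoblasts to myotubes and by 26.4 points from myoblasts to AraC-treated myotubes, while its sign stayed the same. The signed change was lower in 98.5% and 97.6% of autosomal bins. Its rank on chr 2 went from 202nd of 352 bins to 147th and 139th. With the component from other autosomes, *Actc1* still moved upwards, by 16.2 and 17.5 points, and with odd or even partner bins it moved by 20.7 to 29.4 points. The other 5 loci moved by at most 3.41 points from myoblasts to either later condition in PC1, whereas with the component from other autosomes *Actg1* moved by −4.08 and −5.18 points and *Acta2* by 3.79 and −3.83.

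A second measure took the mean correlation coefficient of each actin bin with the A bins of all other autosomes less that with their B bins. It was 0.186, 0.343 and 0.293 for *Acta1*, 0.188, 0.325 and 0.266 for *Actg1*, 0.130, 0.278 and 0.230 for *Actg2*, and 0.0569, 0.158 and 0.133 for *Actb*. All of these values favour A. For *Actc1* it was −0.0304, −0.0431 and −0.0314, so the value was no higher in either later condition than in myoblasts (changes of −0.0127 and −0.000949), and the rise of *Actc1* from the 47.5th to the 60.6th and 61.1st percentiles was one of position among bins. For *Acta2* it was near 0 in myoblasts (0.000450, −0.0122 and −0.0459).

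The bins around each locus placed these values in their chromosomal setting. All 8 neighbours of *Acta1* within 2 Mb and all 7 neighbours of *Actg1* (the eighth would lie beyond the last bin) were in A in every condition, whereas 1 of the 8 neighbours of *Acta2* was. Of all autosomal bins, 38.3%, 36.5% and 35.5% were in A. The *Acta2* bin had a higher PC1 than 7 of its 8 neighbours in myoblasts and myotubes and than 6 after AraC treatment. On its left lay a stretch of 3 bins in B that included the *Lipo* lipase cluster (PC1 from −0.515 to −0.458 in myoblasts). Of all 47 neighbours, 3 (6.38%) changed sign of PC1 from myoblasts to myotubes and 4 (8.51%) from myoblasts to AraC-treated myotubes. These shares were near the 7.32% and 10.2% of all autosomal bins.

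**Figure D2:**
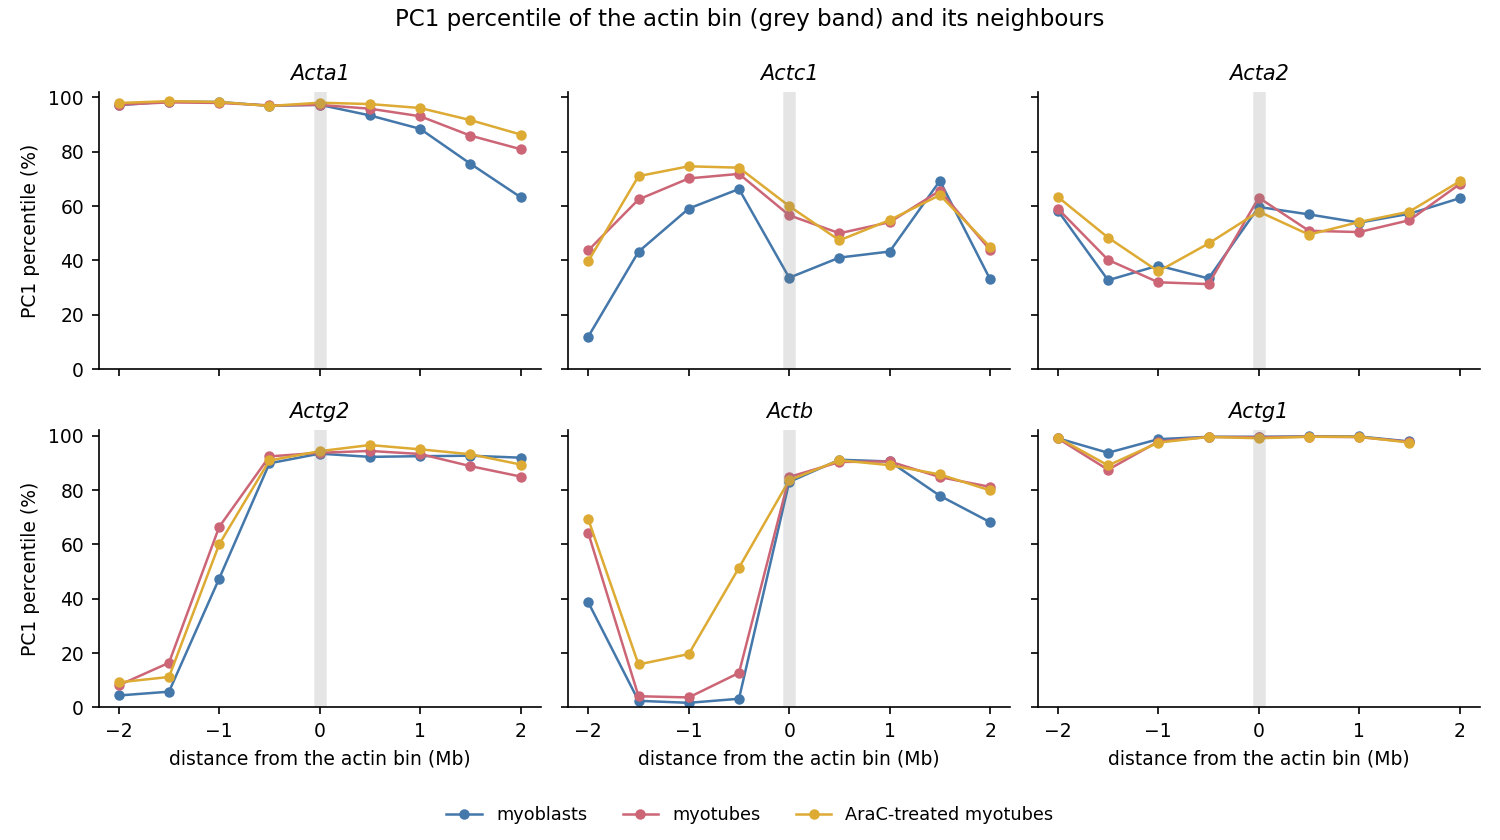
PC1 percentile (%) of each actin bin (grey band) and of the bins up to 2 Mb on either side, against distance from the actin bin (Mb), with 1 line per condition. *Actb* lies directly beside a drop from A to B on its left, and *Actg2* has a drop in percentile 1 Mb to its left. The right flank of *Acta1* and the left flank of *Actc1* are lower in myoblasts (blue) than in the later conditions, and *Actg1* is surrounded by A bins.

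*Actb* lay at a steep border. The bin to its left (chr5:142000001-142500000, with *Foxk1* and *Ap5z1*) had a PC1 of −1.11, −1.39 and −0.491. The step of PC1 from that bin to the *Actb* bin was 1.93, 3.38 and 2.09, larger than 99.8%, 99.6% and 99.2% of the steps between the 4673 pairs of adjacent autosomal bins, whose median was 0.204, 0.323 and 0.225. *Foxk1* encodes a forkhead factor known in myogenic progenitors. Its bin rose from the 3.20th percentile to the 12.7th and 51.4th. The next bins on the left rose with it in percentile (1.69 to 3.68 and 19.7, and 2.43 to 4.13 and 15.8), while *Actb* itself stayed between 83.0 and 84.8. The PC1 of these next bins was −1.29, −1.92 and −1.03, and −1.19, −1.86 and −1.10. In them and in the *Foxk1* bin, PC1 was thus lowest in myotubes. At 2 Mb on the left, the bin with *Lfng* changed from B to A (PC1 −0.451, 0.0400 and 0.344). On the right of *Actb* the bins were in A throughout, including that of *Rac1*, a regulator of actin assembly, at the 90.5th, 90.6th and 89.2nd percentiles.

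At *Actc1*, the percentile rose from myoblasts to myotubes in 7 of the 8 neighbours as well, against 48.3% of all bins. PC1 itself rose only in the left bins described next. It was lower in myotubes than in myoblasts at 2 Mb on the left (−0.776 against −0.770). The same held on the right at 1 Mb (−0.460 against −0.387) and 2 Mb (−0.773 against −0.512). The bin with *Ryr3*, which encodes a ryanodine receptor that releases calcium in muscle and brain, and with *Fmn1*, which encodes the actin-nucleating formin 1 (chr2:113000001-113500000), changed from B in myoblasts to A in both later conditions (PC1 −0.0738, 0.467 and 0.779). The bin with *Grem1*, an inhibitor of BMP signalling, lay directly beside *Actc1* and was in A with 0.128, 0.621 and 0.733. A bin without protein-coding start sites at 1.5 Mb (chr2:112500001-113000000) had −0.388, −0.0682 and 0.482, and its profile was negatively correlated between myoblasts and AraC-treated myotubes (*r* = −0.330). On the other side, the bin of *Dph6* stood at the 41.0th, 50.0th and 47.4th percentiles although its PC1 was lowest in myotubes (−0.416, −0.601 and −0.588). The bin of BC052040 went the other way and was in B in AraC-treated myotubes (0.236, 0.127 and −0.0199). The *Actc1* bin itself had a lower PC1 than its left neighbour in all conditions, with differences of −0.635, −0.979 and −0.946.

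The right flank of *Acta1* showed a gradient. The percentile of the *Acta1* bin and its 4 left neighbours was between 96.8 and 98.6 in all conditions. On the right it fell with distance, and most so in myoblasts, to 63.3 at 2 Mb in the bin of *Sipa1l2*, *Pcnx2* and *Kcnk1*, against 81.0 and 86.4 in the later conditions. The bin of *Disc1* at 1.5 Mb stood at 75.6, 86.0 and 91.7. *Actg2* also had a border, 1 Mb to its left, where the bin of *Hk2* (hexokinase 2, the isoform of muscle) was in B in myoblasts (PC1 −0.318), in A in myotubes (0.176) and in B in AraC-treated myotubes (−0.208). On the right of *Actg2*, the bin whose single protein-coding start site is that of *Dysf*, the membrane repair gene dysferlin of muscle, lay at the 92.2nd, 94.4th and 96.6th percentiles.

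Whether the actin bins kept their interaction partners was measured by the profile correlation, the Pearson *r* of a bin's coefficients in a pair of conditions, taken along its own chromosome. No actin bin had *r* below 0 in any pair of conditions (0 of 6), against 3.28% of autosomal bins for myoblasts and myotubes, 5.8% for myoblasts and the AraC-treated cultures and 1.16% for the pair of differentiated conditions. In a set of 6 bins, 0 cannot be told apart from shares this small. *Actg1* was the most alike of the 6 along its own chromosome, with *r* = 0.980, 0.966 and 0.993 in these pairs of conditions, above 99.5%, 99.6% and 99.9% of bins. The bins around it were much alike too. Its 7 neighbours had *r* from 0.974 to 0.983 for myoblasts and myotubes, and from 0.935 to 0.969 for myoblasts and the AraC-treated cultures. *Acta1* (0.934, 0.887 and 0.979), *Actg2* (0.933, 0.902 and 0.980) and *Actb* (0.888, 0.881 and 0.961) were each above the medians of all bins, which were 0.877, 0.839 and 0.947. With bins of other chromosomes only, *r* was higher for *Acta1* (0.961, 0.928 and 0.981) than for *Actg1* (0.960, 0.926 and 0.978). *Actg2* (0.980) was then also above *Actg1* in the last pair.

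The loci in B were below those medians. *Actc1* had *r* = 0.828, 0.783 and 0.825, so that it differed as much between myotubes and AraC-treated myotubes as between myoblasts and myotubes, unlike the median bin. *Acta2* was the most changed member of the family, with *r* = 0.460, 0.336 and 0.730, at the 12.7th, 13.6th and 12.2nd percentiles. Over bins of other chromosomes only, *r* of *Acta2* was 0.525, 0.315 and 0.568, and that of *Actc1* fell to 0.670, 0.574 and 0.702. A PC1 close to 0, as in *Acta2*, goes with small correlation coefficients, and the part of that in its low *r* was not tested.

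**Figure D3:**
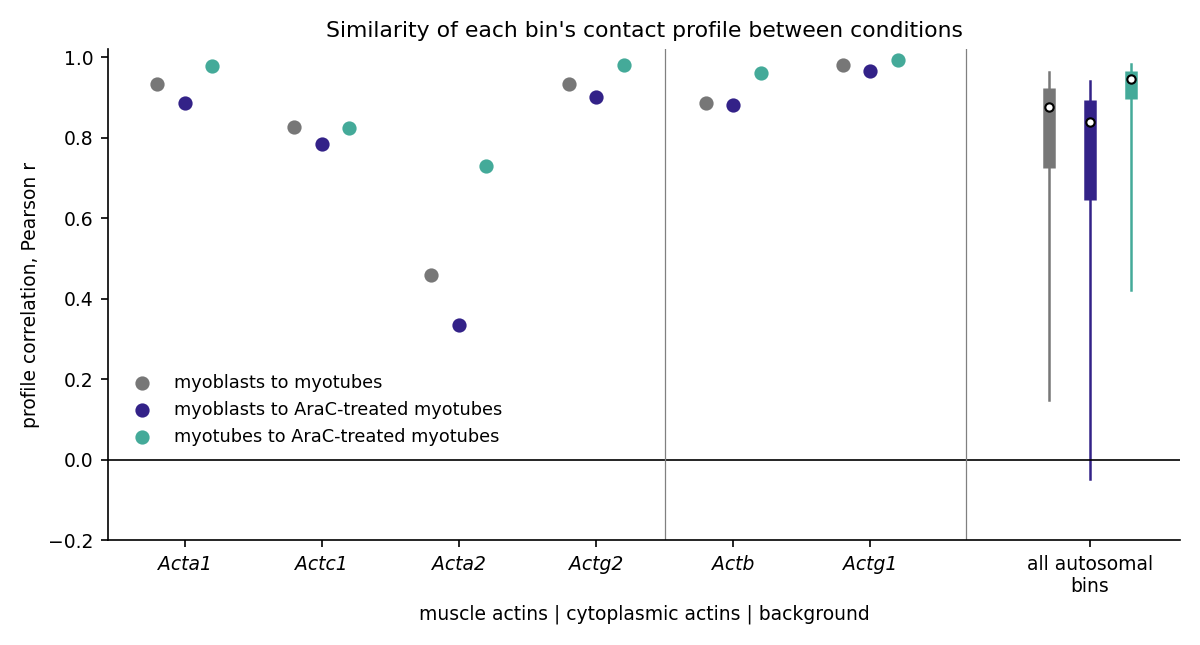
Profile correlation (Pearson *r*, no unit) of each actin bin in the 3 pairs of conditions, 1 point per pair, beside all autosomal bins (white dot, median; thick line, middle 50%; thin line, 5th to 95th percentile). *Acta2* lies lowest, at 0.460, 0.336 and 0.730, and *Actg1* highest, at 0.980, 0.966 and 0.993.

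The correlation coefficients between the actin bins, all on different chromosomes, gave 15 pairs. They divided by compartment and not by isoform class. All 6 pairs among *Acta1*, *Actg2*, *Actb* and *Actg1* were positive in every condition, from 0.0664 to 0.347, 0.155 to 0.546 and 0.136 to 0.430. The lowest of them lay at the 95.1st, 96.9th and 97.0th percentiles of all 10547562 pairs of bins on different autosomes. Among pairs in which both bins were in A, it lay at only the 73.7th, 78.2nd and 76.6th. Of the 8 pairs that joined one of these loci to *Actc1* or *Acta2*, 2 were above 0 in myoblasts and 0 in either later condition, with a range of −0.0688 to 0.0101, −0.0852 to −0.00397 and −0.0714 to −0.0150. For comparison, 57.1%, 58.4% and 56.1% of all pairs of bins on different autosomes were above 0. The matrices that gave these coefficients also gave PC1, so the match between both is a description. *Actc1* and *Acta2*, both in B, had coefficients of only −0.0147, −0.0109 and 0.00268 with each other.

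**Figure D4:**
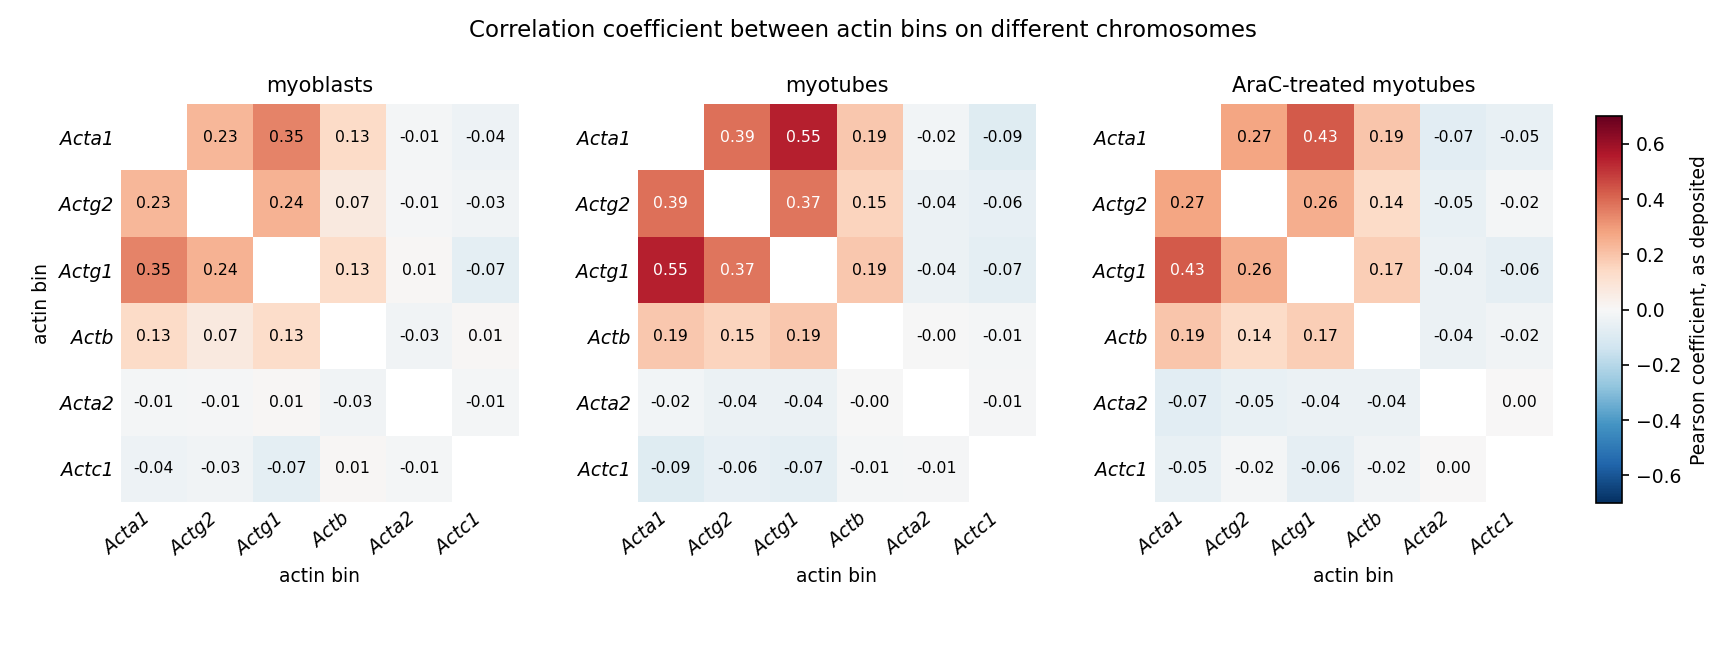
Deposited correlation coefficients (no unit, colour scale at the right) between the 6 actin bins, 1 panel per condition, with the loci of compartment A first. Red cells, up to 0.55 for *Acta1* with *Actg1* in myotubes, fill the block of *Acta1*, *Actg2*, *Actg1* and *Actb*, and the rows of *Acta2* and *Actc1* are close to 0 or negative.

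The highest pair joined a muscle and a cytoplasmic gene. *Acta1* and *Actg1* had 0.347, 0.546 and 0.430, the 99.8th, 99.8th and 99.6th percentiles of pairs in which both bins were in A. *Acta1* and *Actg2* had 0.233, 0.386 and 0.275, and *Actg2* and *Actg1* had 0.241, 0.372 and 0.256, so that the latter pair was the higher in myoblasts and the former in both later conditions. Both cytoplasmic genes, *Actb* and *Actg1*, had 0.128, 0.186 and 0.175, the 98.3rd, 97.6th and 97.9th percentiles, which among pairs of A bins were only the 88.8th, 82.6th and 83.7th. All 6 of these pairs had higher coefficients in myotubes than in myoblasts. The SD of all coefficients between autosomes was also larger later (0.0446, 0.0890 and 0.0732). Among all pairs on different autosomes, the percentiles of these 6 pairs stayed at or above 95.1 in every condition. From myoblasts to myotubes they fell for *Acta1* with *Actb* (98.5 to 97.7) and *Actb* with *Actg1* (98.3 to 97.6). They also fell for *Actg2* with *Actg1* (99.68 to 99.53) and *Acta1* with *Actg2* (99.63 to 99.59). They rose for *Actg2* with *Actb* (95.1 to 96.9) and *Acta1* with *Actg1* (99.96 to 99.97).

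By isoform class, the mean coefficient was 0.0227, 0.0283 and 0.0139 over the 6 muscle pairs and 0.0890, 0.142 and 0.105 over the 8 pairs of a muscle and a cytoplasmic gene. The mean was thus lower among the muscle genes than between them and the cytoplasmic genes, which was not tested. The muscle mean rested on the pair of *Acta1* and *Actg2*: it was negative when either *Acta1* or *Actg2* was left out (−0.0153, −0.0370 and −0.0219 without *Acta1*, and −0.0218, −0.0387 and −0.0409 without *Actg2*), and the median of the muscle pairs was −0.0145, −0.0318 and −0.0342. The mean over muscle and cytoplasmic genes was also lower without *Acta1* (0.0386, 0.0669 and 0.0365), without *Actg1* (0.0455, 0.0813 and 0.0655) or as a median (0.0382, 0.0755 and 0.0565), but remained above 0.

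The bins most like each actin bin on other autosomes also differed between the loci. A bin of chr 10 with 26 protein-coding start sites, among them *Atp8b3*, *Rexo1* and *Klf16* (chr10:80500001-81000000), was one of the 3 nearest to *Acta1*, *Actb* and *Actg1* by the mean over conditions, at 0.504, 0.181 and 0.502. The bin nearest to *Acta1* lay on chr 15 (*H1f0*, *Gcat*, *Galr3*; 0.506) and the last of its 3 on chr 17 (*Tcp11*, *Scube3*, *Zfp523*; 0.503). *Actg2* was nearest to bins with *Capn1*, *Syvn1* and *Mrpl49* on chr 19 (0.345), *Pdgfb*, *Syngr1* and *Rpl3* on chr 15 (0.338), and *Ergic1*, *Dusp1* and *Atp6v0e* on chr 17 (0.336). The first bins for *Actb* were those of *Fam83h* and *Scrib* (0.181) and of *Map3k12* and *Tarbp2* (0.181) on chr 15, and *Actg1* had its next bins with *Faim2*, *Aqp2* and *Aqp5* (0.492) and with *Dgat1*, *Scrt1* and *Tmem249* (0.489), also on chr 15.

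The nearest bins of the loci in B had far lower coefficients. By the mean over conditions, the first bins for *Actc1* were that of *Esrrg*, the gene of an oestrogen-related receptor known in oxidative muscle (0.0537), a bin without protein-coding start sites on chr 3 (0.0523) and the bin of *Ajap1* on chr 4 (0.0496). Their order changed between conditions: *Esrrg* was the highest of them in myoblasts (0.0773), the chr 3 bin in myotubes (0.0880) and *Ajap1* in AraC-treated myotubes (0.0446). *Acta2* was nearest to the bins of *Tns3* and *Pkd1l1* on chr 11 (0.0870), of *Rnf138*, *Mep1b* and *Garem1* (0.0689), and of *Zfr*, *Mtmr12* and *Golph3* on chr 15 (0.0620). *Tns3* encodes tensin 3, an adaptor at the adhesions to which actin filaments attach. All of these bins of *Actc1* and *Acta2* had a PC1 percentile of at most 41.3 in every condition.

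Among the 50 bins with the highest coefficients, 50 were in A in every condition for *Acta1*, *Actg2* and *Actg1*, and 49, 50 and 50 for *Actb*. For *Actc1* the number was 1, 2 and 1. *Acta2* went from 24 of 50 in myoblasts to 20 in myotubes and 0 after AraC treatment, which is 48%, 40% and 0% against the 38.3%, 36.5% and 35.5% of all autosomal bins in A, so the share in myotubes was near that of all bins. Among its 200 highest bins the share in A was 47%, 33.5% and 1%. Other actin loci ranked high among the partners of some members: by the mean over conditions *Acta1* was 14th of 4436 bins for *Actb*, 47th of 4490 for *Actg1* and 93rd of 4438 for *Actg2*, and *Actg1* was 36th for *Actb*. In the other direction ranks were lower, with *Actb* 706th of 4478 for *Acta1*, 681st for *Actg1* and 808th for *Actg2*. The best rank of another actin bin was only 3161st of 4375 for *Actc1* and 3522nd of 4610 for *Acta2*.

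The genes that build, fold and regulate actin filaments were placed in the same way, by lists drawn from textbook knowledge. The largest rise and fall named for each list are those of the PC1 percentile. Of the 25 bins with thin filament genes (29 genes, tropomyosins, troponins, nebulins, capping proteins and actinins), 19, 20 and 19 were in A, where 38.3%, 36.5% and 35.5% of all autosomal bins were, with median PC1 percentiles of 88.9, 89.2 and 88.6. *Neb*, which encodes the giant ruler protein nebulin of the skeletal thin filament, was the list's bin that changed from B to A: its PC1 was −0.207, 0.718 and 0.976, and its profile was negatively correlated with that in myoblasts (*r* = −0.340 and −0.599 for the later conditions). *Capza2*, of the barbed-end cap, was in A in myoblasts and myotubes and in B in AraC-treated myotubes (0.0991, 0.0855 and −0.0433). The largest rise was that of *Lmod3*, a leiomodin that nucleates filaments in skeletal muscle, from the 23.4th percentile to the 57.2nd and 55.8th. *Nebl*, encoding the cardiac nebulette, fell from 49.3 to 30.1 and 29.2.

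Of the 10 bins of SRF and TEAD regulators, 8 were in A in every condition and 0 changed sign (all bins, 38.3%, 36.5% and 35.5% in A). *Srf* stood at the 95.2nd, 94.0th and 89.3rd percentiles, whereas *Myocd*, the SRF coactivator of smooth and cardiac muscle, was deep in B at the 3.64th, 1.48th and 3.26th. *Tead4* went from 65.8 to 70.8 in myotubes, the largest rise of the list. *Mrtfb*, another SRF coactivator, had the largest rise in AraC-treated myotubes (67.0 to 74.8), and *Fhl2* the largest fall (76.7 to 70.5).

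Among the 25 bins of actin assembly and turnover, 17, 15 and 15 were in A (all bins, 38.3%, 36.5% and 35.5%) and 2 changed sign from myoblasts to either later condition. These held *Twf2* (PC1 0.0104, −0.311 and −0.245), a twinfilin, and *Diaph1* (0.00970, −0.346 and −0.454), a formin. *Cap1*, which recycles actin monomers, rose most, from the 17.9th percentile to the 56.8th and 63.1st, while *Actr2*, a subunit of the branching Arp2/3 complex, fell from 49.6 to 35.9 and 15.9. Of the 15 bins of actin folding and modification (the CCT chaperonin, prefoldin and the actin-modifying enzymes *Setd3* and *Naa80*), 10, 11 and 11 were in A, against the same shares of all bins. The bin of *Tcp1*, a CCT subunit, changed from B to A (−0.0805, 0.515 and 1.00). *Cct6a* rose most in myotubes (49.0 to 61.0) and *Pfdn6* fell most (90.4 to 86.0), and in AraC-treated myotubes *Cct5* fell most (41.4 to 30.8).

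The 8 bins of smooth muscle contractile genes were in A except for *Tagln* (transgelin), which had a PC1 of −0.000586, −0.447 and −0.132, at the 61.7th, 54.3rd and 61.8th percentiles. *Smtn*, encoding smoothelin, rose most (91.7 to 95.8 and 94.1), and *Cnn1*, encoding calponin 1, fell most in AraC-treated myotubes (85.9 to 77.8). The actin-related proteins were spread more evenly, with 8, 7 and 7 of 16 bins in A, against 38.3%, 36.5% and 35.5% of all bins, and medians of 61.9, 50.5 and 46.8. *Actrt3* changed from A to B (0.264, −0.0694 and −0.0715) with *r* = −0.189 and −0.258. *Actr3* rose most in percentile (13.9 to 28.7 and 27.3), although its PC1 was in B throughout and lowest in myotubes (−0.733, −1.06 and −0.904). *Actr3b* fell most in myotubes (53.7 to 36.7). From myoblasts, 1 of the 25 thin filament bins changed sign to myotubes and 2 to AraC-treated myotubes. For actin assembly and turnover these counts were 2 and 2 of 25, and for folding and modification 1 and 1 of 15. They were 1 and 1 of 16 for the actin-related proteins and 0 for the other lists. The shares given above for all bins were 7.32% and 10.2%.

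The thin filament bins were set against the actin bins by their mean coefficients. With *Acta1* they had 0.144, 0.237 and 0.188 over 24 pairs on different chromosomes, with *Actg2* 0.117, 0.214 and 0.171 over 22 pairs, and with the cytoplasmic *Actg1* 0.149, 0.224 and 0.172 over 25 pairs. With *Actb* they had 0.0425, 0.104 and 0.0757. With *Actc1* the means were −0.0312, −0.0347 and −0.0269, and with *Acta2* they were 0.00787, −0.00668 and −0.0212. The mean with the skeletal *Acta1* was thus lower than that with *Actg1* in myoblasts and higher in both later conditions. By the mean percentile of the pairs, however, *Acta1* (74.0, 72.2 and 72.8) was below *Actg1* (74.5, 73.3 and 74.2) in every condition. The mean with *Actc1*, the other striated muscle actin, was below 0 throughout. The 8 smooth muscle bins had 0.119, 0.221 and 0.181 with *Actg2* but 0.00680, −0.0104 and −0.0270 with *Acta2*, the other smooth muscle actin. With the skeletal *Acta1* they had 0.162, 0.269 and 0.227. Most bins of both lists were in A. With all A bins of other autosomes, the mean coefficient was 0.1191, 0.2001 and 0.1766 for *Acta1* and 0.0867, 0.164 and 0.139 for *Actg2*. It was 0.119, 0.186 and 0.155 for *Actg1* and 0.0364, 0.0904 and 0.0783 for *Actb*. Whether the list means differ from those of A bins in general was not tested.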

How the data were processed

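Hi-C libraries were made with HindIII by the authors from 2 biological replicates of myoblasts, myotubes and AraC-treated myotubes. Reads were mapped with bowtie and filtered in HiCUP, and replicates were pooled and normalized in HOMER. The 3 deposited files hold Pearson correlation coefficients between 500 kb bins of mm10, and columns of unmapped samples numbered 0. A coefficient does not show the number of reads behind it, so the depth of each bin is unknown here. Chromosome lengths of the bins fitted GRCm38, whose sequence and GENCODE vM21 annotation were used.

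For each autosome and condition, PC1 was taken from the matrix of that chromosome alone after centring its columns (no scaling), oriented so that bins with more protein-coding start sites scored higher. Chr X was left out. Percentiles were taken over 4727 bins. Motifs were searched in RefSeq promoters as spelled out above. Computation was in NumPy 2.4.6 and SciPy 1.17.1 under Python 3.11.15, with plots by Matplotlib 3.10.9, and the steps were tested on simulated matrices.

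The named genes were the actin genes, genes and bins beside them (for bins with over 8 genes the 4 nearest), the 3 nearest bins on other autosomes, and for each list the largest rise and fall from myoblasts and any sign change or negative *r*. Some neighbouring and list genes (*Lfng*, *Rac1*, *Srf*) and the motifs were picked after their values were seen. The members and lists were chosen with earlier results of these data known. The alternatives were other components, partner bins, gene positions, bins shifted by 1, rank correlation, thresholds, scales of the coefficients and leaving out loci. Alternatives for single loci and for the number of partners were chosen after seeing the data. RNA-seq was not analysed here.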

Additional observations from a re-analysis of the deposited data

How the results depend on the processing

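Of 285 alternative values for 30 summary results, 32 moved, 19 reversed and 234 stayed within the tolerance used, which was 10 points for a percentile, 0.1 for a profile correlation, 1.5 times for a count and 0.5 SD of all coefficients between autosomes for a mean coefficient. This last tolerance is wide for the muscle pairs, whose mean in myotubes was 0.00911 and 0.0116 with bins shifted to the left and right. In the 8 alternatives run for it, 4 of the 6 bins were in A and 0 changed sign in each condition, but with bins shifted to the left these held the neighbour of *Actc1* in place of that of *Actb*. Values are given for myoblasts, myotubes and AraC-treated myotubes in that order. With bins shifted by 1 to the left, the median percentile of the cytoplasmic bins was 51.4, 56.1 and 75.5, the mean coefficient of muscle with cytoplasmic pairs 0.0387, 0.0580 and 0.0590, and that of *Actb* with *Actg1* reversed to −0.150, −0.155 and −0.0609, the shifted *Actb* bin being that beyond the border. Shifted to the right, *Actb* with *Actg1* had 0.202, 0.303 and 0.284, and the muscle mean in AraC-treated myotubes was −5.58e-05. The median in place of the mean reversed the muscle pairs (−0.0145, −0.0318 and −0.0342) and gave 0.0382, 0.0755 and 0.0565 for muscle with cytoplasmic pairs. The mean percentile of the muscle pairs was below 50, at 37.6, 38.6 and 39.9 among all pairs and 39.9, 39.4 and 40.6 among pairs of the same chromosomes.

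Without *Acta1* the muscle mean was −0.0153, −0.0370 and −0.0219 and that of muscle with cytoplasmic pairs 0.0386, 0.0669 and 0.0365. Without *Actg2* the muscle mean was −0.0218, −0.0387 and −0.0409. Without *Actc1* the muscle mean was 0.0709, 0.108 and 0.0500, and muscle with cytoplasmic pairs had 0.128, 0.203 and 0.154. Without *Acta2* these were 0.0569, 0.0814 and 0.0686, and 0.121, 0.196 and 0.155. Muscle with cytoplasmic pairs had 0.132, 0.202 and 0.145 without *Actb*, and 0.0455, 0.0813 and 0.0655 without *Actg1*. The cause was not tested beyond the loci left out. For single loci, 206 of 216 alternative values stayed within 10 points or 0.1 in *r* and 10 moved, all of them profile correlations of *Actc1* or *Acta2*, as low as 0.574 and 0.228 between myoblasts and AraC-treated myotubes. Within that tolerance, the component from other autosomes put *Actg1* at the 97.0th, 92.9th and 91.8th percentiles and *Actc1* at the 43.6th in myoblasts.

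No paired analysis was possible because both replicates of each condition were pooled before deposit, so leaving out a replicate was not possible either. Bins of 500 kb do not separate a gene from its neighbours.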
